A study of Mus musculus with 12 samples.

Results

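The genes described here build and move the cilium. They were taken from the count tables by symbol, as every gene whose symbol begins with Dnahc, Dnaic, Dnali, Tekt or Rsph, here called axonemal, or with Ift or Bbs followed by a digit, here called transport. The rule reads symbols alone, although the family was picked with earlier results of these data known. The rule found 50 genes among the 34906 listed in all, of which 30 are axonemal and 20 are transport genes. A gene was tested where its mean level over the libraries of a set was at least 1 CPM, CPM being the usual read count scaled to the library's reads on genes. In the RNase III set 25 of the 30 axonemal genes and all 20 transport genes passed. The knockout set listed 44 of the 50, and 22 of its 24 axonemal genes and all 20 transport genes passed. Dnahc3, Dnahc12, Dnahc14, Dnahc7a, Dnahc7c and Rsph10b2 were not analysed here in the knockout set.

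A motile cilium beats because dynein motors walk along the paired microtubules of its core, the axoneme. The outer dynein arms set mainly the beat frequency and the inner arms mainly the shape of the beat. Each arm is built around very large heavy chains, which hold the motor, together with intermediate and light chains. Tektins are filaments that stabilise the paired microtubules, and radial spokes pass signals from the central pair of microtubules to the dynein arms. Intraflagellar transport (IFT) carries parts along the cilium in trains, with the IFT-B complex serving movement to the tip and IFT-A the return. The BBSome, a complex of Bbs proteins, links membrane cargo to these trains. In the lung, axonemal genes of this kind mark multiciliated airway cells, which clear mucus, whereas transport genes also serve the immotile primary cilium of many other cell types.

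RNA was sequenced from whole lungs of B6 mice aged 6 to 8 weeks, 14 to 16 h after treatment. The RNase III set used wild-type animals, which received phosphate-buffered saline (PBS; libraries 1 and 2), an extract of Dermatophagoides farinae, a house dust mite (D.f.; libraries 3 and 4) or D.f. extract with RNase III, an enzyme that cuts double-stranded RNA (libraries 5 and 6). In the knockout set, wild-type mice received PBS (library 1) or D.f. extract (libraries 3 and 4), and TLR3MAVS double knockout mice, abbreviated DKO, received PBS (library 2) or D.f. extract (libraries 5 and 6). Tlr3 and Mavs encode a receptor and an adaptor through which cells sense double-stranded RNA. No group received RNase III with PBS, so an effect of the enzyme itself and the loss of double-stranded RNA cannot be told apart. The labels do not say whether libraries of a group came from separate animals, so p-values measure the spread between libraries, which may be technical.

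Each library of the RNase III set held 17754518 to 25714074 reads on genes, those of the knockout set held 15687699 to 20945618, and 3 reads, the limit that a count of 0 allows, corresponded to 0.117 to 0.191 CPM. Such limits cover counting error only. Both targeted genes were low in all 3 DKO libraries. Mavs was at 3.08, 2.65 and 2.34 CPM in DKO libraries 2, 5 and 6, against 32.1 to 37.0 CPM in the 3 wild-type libraries of that set. Tlr3 was at 10.5, 14.7 and 9.99 CPM in the same DKO libraries and at 43.1 to 156 CPM in wild type. All 47 genes of a separate list of multiciliated-cell genes that the tables hold were detected in every library.

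Promoter sequence was available in RefSeq (build GRCm38.p6) for 42 of the 50 genes, 25 axonemal and 17 transport, and the 250 bases before the annotated start of each were searched on both strands. The sequence of interest is the X-box, the binding site of the RFX transcription factors that act on cilium genes. A single arm of the site, GTTGCC, stood in 6 of 25 axonemal promoters (24%) and in 4 of 17 transport promoters (23.5%). Of all 27025 promoters searched 10.5% held it, and alone it is not a complete X-box. A mirrored pair of sites, GTTGCNNNGCAAC, was added to the search after the letters of these promoters had been read, so its count is a description of these genes. It stood in 6 of 25 axonemal promoters (24%), in 0 of 17 transport promoters and in 0.211% of all promoters. The 6 genes were Dnahc6, Dnahc7a, Dnahc7b, Dnaic2, Tekt2 and Tekt4, of which Dnahc7a and Dnahc7b are near copies of each other. The pair ended between 12 bases (Dnahc7b) and 45 bases (Dnahc7a) before the start, with Dnaic2 at 21, Tekt2 at 17, and Dnahc6 and Tekt4 at 24 bases. A pair with 1 more base between the sites, GTTGCNNNNGCAAC, was found in no member and in 0.13% of all promoters. A looser form, GTTNCCNNGGNAAC, which can overlap the single arm, was found in Bbs7 alone among the members and in 0.363% of all promoters. A forkhead site, TGTTTAC, the kind of site that Foxj1 can bind, stood in 2 of 25 axonemal promoters (8%, Dnahc17 and Tekt3), in 0 of 17 transport promoters and in 3.09% of all promoters. Transport promoters had a median of 60% G and C, axonemal promoters 52.8% and all promoters 52%.

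The last 150 bases before the start are shown for 7 genes on which the results below turn or which carry the sites just named. They read 5′ to 3′ toward the gene, with matches to any of the 4 forms, the single arm or a pair, in capitals. Dnahc6 lies at chr6:73221632-73221781 (minus strand), Dnaic2 at chr11:114727269-114727418 (plus), Tekt2 at chr4:126325689-126325838 (minus), Tekt4 at chr17:25471440-25471589 (plus), Bbs7 at chr3:36613390-36613539 (minus), Dnahc11 at chr12:118199044-118199193 (minus) and Bbs9 at chr9:22475565-22475714 (plus). The first 4 carry the mirrored pair, Bbs7 the looser form, and Dnahc11 and Bbs9, the heavy chain and the transport gene with the smallest p-values in the fit over the wild-type libraries of both sets, hold none of the 4 forms in this window.
Dnahc6: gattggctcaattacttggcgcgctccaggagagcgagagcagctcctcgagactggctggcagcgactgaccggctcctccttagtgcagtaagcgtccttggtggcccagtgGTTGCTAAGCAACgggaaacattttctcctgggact
Dnaic2: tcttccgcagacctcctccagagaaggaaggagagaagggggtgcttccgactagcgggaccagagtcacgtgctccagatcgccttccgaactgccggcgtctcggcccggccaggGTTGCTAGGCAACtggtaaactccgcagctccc
Tekt2: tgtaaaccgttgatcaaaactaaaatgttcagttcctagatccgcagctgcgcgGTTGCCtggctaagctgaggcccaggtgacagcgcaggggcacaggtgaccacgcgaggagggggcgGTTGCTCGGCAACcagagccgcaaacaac
Tekt4: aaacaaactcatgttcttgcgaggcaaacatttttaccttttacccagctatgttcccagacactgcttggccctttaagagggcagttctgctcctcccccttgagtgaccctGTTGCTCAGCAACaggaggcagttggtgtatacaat
Bbs7: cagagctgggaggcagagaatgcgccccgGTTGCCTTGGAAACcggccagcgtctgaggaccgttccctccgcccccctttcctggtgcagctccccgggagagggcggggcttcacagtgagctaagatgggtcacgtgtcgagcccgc
Dnahc11: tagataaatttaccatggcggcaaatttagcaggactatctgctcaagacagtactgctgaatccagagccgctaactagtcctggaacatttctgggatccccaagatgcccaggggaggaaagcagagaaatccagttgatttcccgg
Bbs9: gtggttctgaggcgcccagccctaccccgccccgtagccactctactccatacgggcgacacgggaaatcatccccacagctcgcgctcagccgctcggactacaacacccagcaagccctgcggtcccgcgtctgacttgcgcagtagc

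Levels differed widely between members. Per kilobase of annotated exon, which allows genes to be compared within a set, the most abundant axonemal gene of the RNase III set was Rsph1, a radial spoke component, at 18.4 CPM per kilobase. Rsph4a of the spoke head followed at 7.84, Dnali1, a light intermediate chain of the inner arm, at 7.75, and the inner-arm heavy chain Dnahc12 at 7.63 CPM per kilobase. The most abundant transport genes were the IFT-B components Ift20 at 24.0, Ift27 at 14.1, Ift172 at 14.0 and Ift52 at 11.4 CPM per kilobase. In the knockout set the order began with Rsph1 at 8.87, Dnahc6 at 5.71, Dnahc5 at 4.84 and Rsph4a at 4.66 CPM per kilobase, and with Ift20 at 15.6, Ift172 at 13.6, Ift52 at 12.9 and Ift27 at 10.1 CPM per kilobase. The sets were normalised separately, so these levels are not compared across them. Below 1 CPM in the RNase III set were Dnahc14 (mean 0.0555 CPM), Dnahc7a (0.163), Rsph6a (0.170), Dnahc7c (0.175) and Tekt3 (0.766), and in the knockout set Rsph6a (0.266) and Tekt3 (0.365). Rsph6a and Tekt3 are known mainly from sperm. Reads of the near-identical copies Dnahc7a, Dnahc7b and Dnahc7c, and of Rsph3a and Rsph3b, may have been lost or split in counting, and their values are uncertain.

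The axonemal genes moved more between libraries than the transport genes. The range over the 6 libraries of a set, from the lowest to the highest, had a median of 0.77 on the log2 scale over the 25 axonemal genes of the RNase III set, 0.44 over the 20 transport genes and 0.60 over all 15491 genes tested. In the knockout set the medians were 0.88 for 22 axonemal genes, 0.39 for 20 transport genes and 0.46 for all 14107 genes tested. In the RNase III set, D.f. with RNase III library 5 was the lowest for 10 of 25 axonemal genes. Wild-type D.f. library 4 was the lowest in the knockout set for 13 of 22. The highest library was most often a PBS library. PBS library 2 of the RNase III set was the highest of its 6 libraries for 17 of 25 axonemal genes, and wild-type PBS library 1 of the knockout set was the highest of its 6 for 15 of 22. These libraries also stood apart in other tissue. Summed cardiac muscle markers, of which 11 or 12 of 12 were detected in each library of the RNase III set, were at 189 CPM in PBS library 1 and 1474 CPM in PBS library 2 of the RNase III set, and the other 4 libraries of that set lay between 227 and 1120 CPM. In the knockout set the sum was 891 CPM in wild-type PBS library 1 and 155 CPM in DKO PBS library 2. The part of tissue sampling in the results below was not tested. In whole lung, fewer multiciliated cells and less RNA of these genes per cell cannot be told apart.

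**Figure D1:**
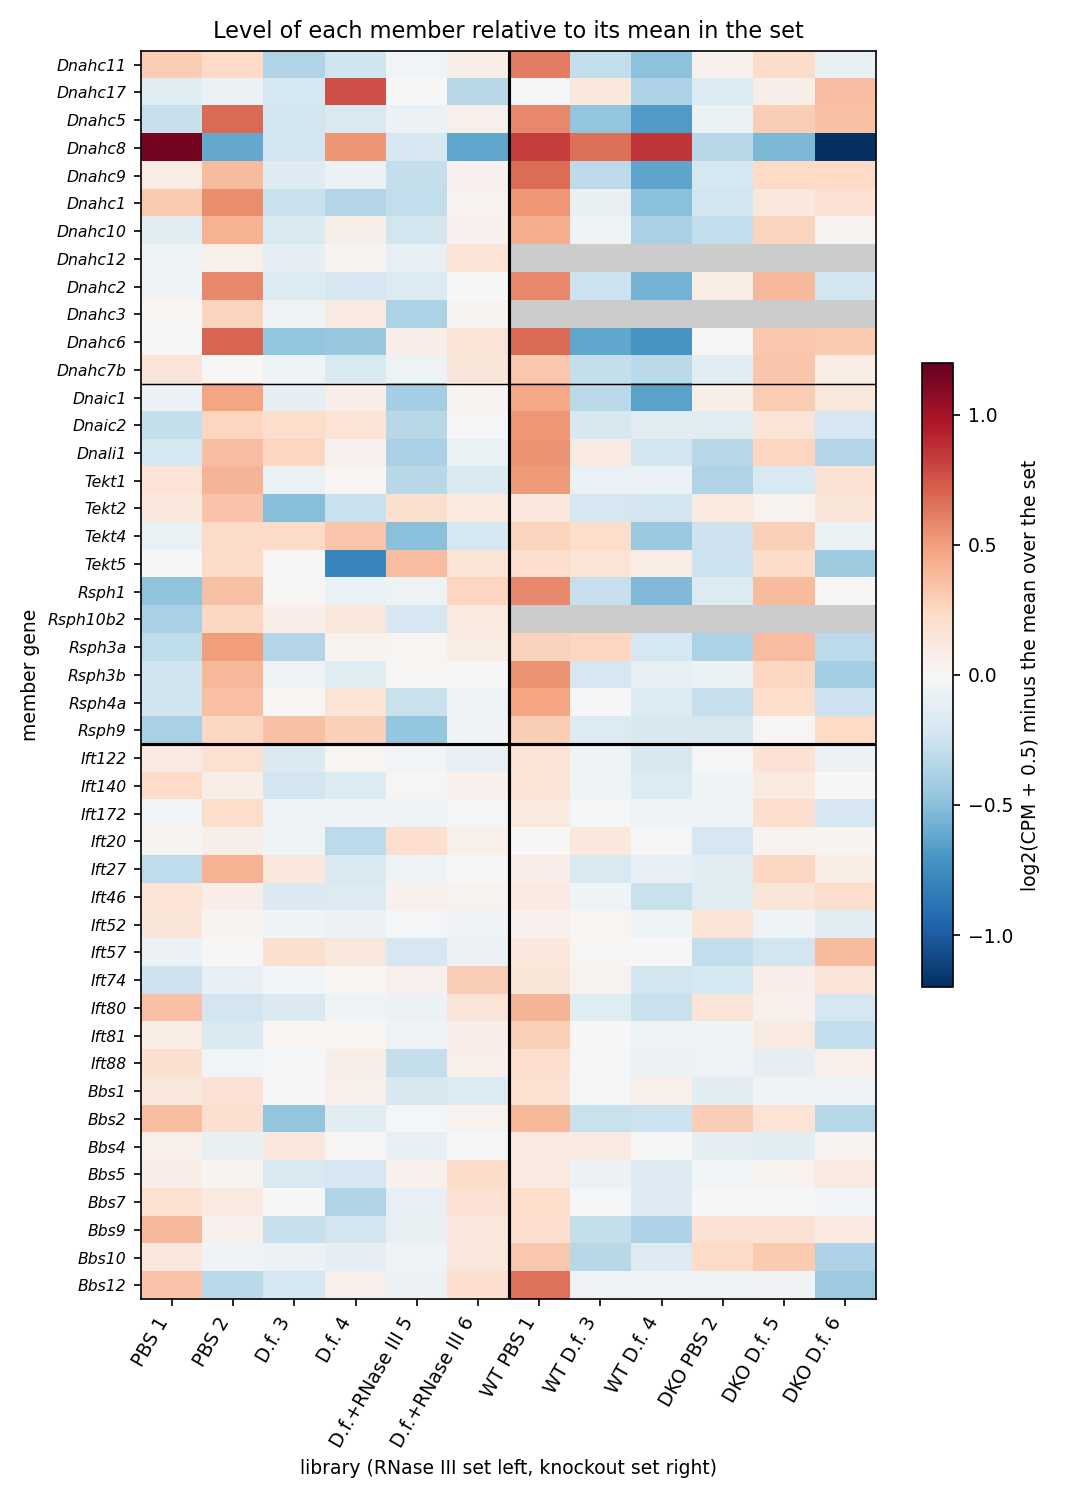
Heat map of the tested members (rows) in the 12 libraries (columns, RNase III set left and knockout set right), as log2(CPM + 0.5) minus the gene's mean over its set; red is above and blue below that mean, and grey genes were not analysed in the knockout set. Thick horizontal line, axonemal above transport; thin line, heavy chains above other axonemal genes. PBS 2 and WT PBS 1 are red for most axonemal genes, and transport genes stay paler.

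D.f. extract against PBS in the RNase III set asks how the mite extract acts on wild-type lung. The members called were 3 dynein heavy chains, each lower with the extract. Dnahc11, an outer-arm heavy chain at chr12:119116455-119437516 (NCBIM37, minus strand), was at 59.7 and 57.0 CPM in PBS libraries 1 and 2 and at 37.5 and 40.6 CPM in D.f. libraries 3 and 4. Both D.f. libraries were below both PBS libraries, and the log2 fold change was -0.58 ± 0.12 (SE; adjusted p = 0.0236, edgeR quasi-likelihood test, Benjamini-Hochberg over all genes). Dnahc1, an inner-arm heavy chain at chr14:32073561-32137082 (minus strand), was at 30.0 and 35.7 CPM with PBS and at 19.9 and 18.8 CPM with D.f., a log2 fold change of -0.76 ± 0.17 (adjusted p = 0.0292, edgeR). Dnahc6, another inner-arm heavy chain at chr6:72967600-73171645 (minus strand), was at 97.0 and 158 CPM with PBS and at 69.8 and 70.5 CPM with D.f. Its PBS libraries differed more from each other than its D.f. libraries did, and the log2 fold change was -0.86 ± 0.22 (adjusted p = 0.0462, edgeR), -1.17 without PBS 1 and -0.47 without PBS 2. In none of these 3 genes did the groups overlap.

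These 3 were the only members called, 3 of 25 axonemal genes and 0 of 20 transport genes, beside 4.84% of all 15491 genes called lower and 11.7% called in either direction. DESeq2 also called 0 transport genes. By edgeR, 5 axonemal and 4 transport genes had an unadjusted p under 0.05, beside 26.7% of all genes. The median log2 fold change was -0.34 over 12 heavy chains, -0.03 over the 13 other axonemal genes, -0.15 over the transport genes and -0.01 over all genes. Among the axonemal genes the heavy chains were thus lower at the median than the tektins, radial spokes and smaller dynein chains as a group, although the tektin Tekt2 (from 8.46 and 9.95 CPM under PBS to 5.30 and 6.32 CPM under D.f.; log2 fold change -0.67, adjusted p = 0.0797, edgeR) lay close to the threshold. The radial spoke genes had a median of -0.01, with Rsph9 at 0.37 and Rsph3a at -0.35. The smallest p-values among transport genes belonged to Bbs2 and Bbs9 of the BBSome, at -0.60 ± 0.19 (adjusted p = 0.0888, edgeR) and -0.48 ± 0.16 (adjusted p = 0.103), and to Ift140 of IFT-A at -0.36 ± 0.12 (adjusted p = 0.109). Both D.f. libraries were below both PBS libraries in 12 of 20 transport genes and in 8 of 25 axonemal genes, beside 25.6% of all genes.

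Foxj1, the transcription factor that switches on the motile cilium programme, did not move with the heavy chains. It was at 46.7 and 101 CPM with PBS and at 106 and 111 CPM with D.f., so the D.f. libraries were the higher ones, at a log2 fold change of 0.55 ± 0.31 (adjusted p = 0.314, edgeR). The value was 0.10 without PBS 1 and 1.21 without PBS 2. Other multiciliated-cell genes, such as those for assembly and regulatory parts of the axoneme, had a median of -0.02 over 46 tested, with 23 above and 23 below 0 and 0 called by edgeR (2 at an unadjusted p under 0.05). Other long genes moved in the same direction: of 674 with at least 10 kb of exon, 61.6% were below 0, at a median of -0.09, and 8.31% were called lower and 2.97% higher. Fibroblast markers were at a median of -0.72 (4 of 10 called lower), alveolar type 1 cell markers at -0.35 (1 of 10), endothelial markers at -0.29 (2 of 10) and leukocyte markers at 0.52 (2 of 10 called higher). The part of length and of these cell types in the result was not tested. The counts rest on single libraries. Their ranges with 1 library left out are given at the end, beside those of all genes. The axonemal median minus the transport median was -0.10, 0.01 without D.f. 3 and 0.27 without PBS 2.

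**Figure D2:**
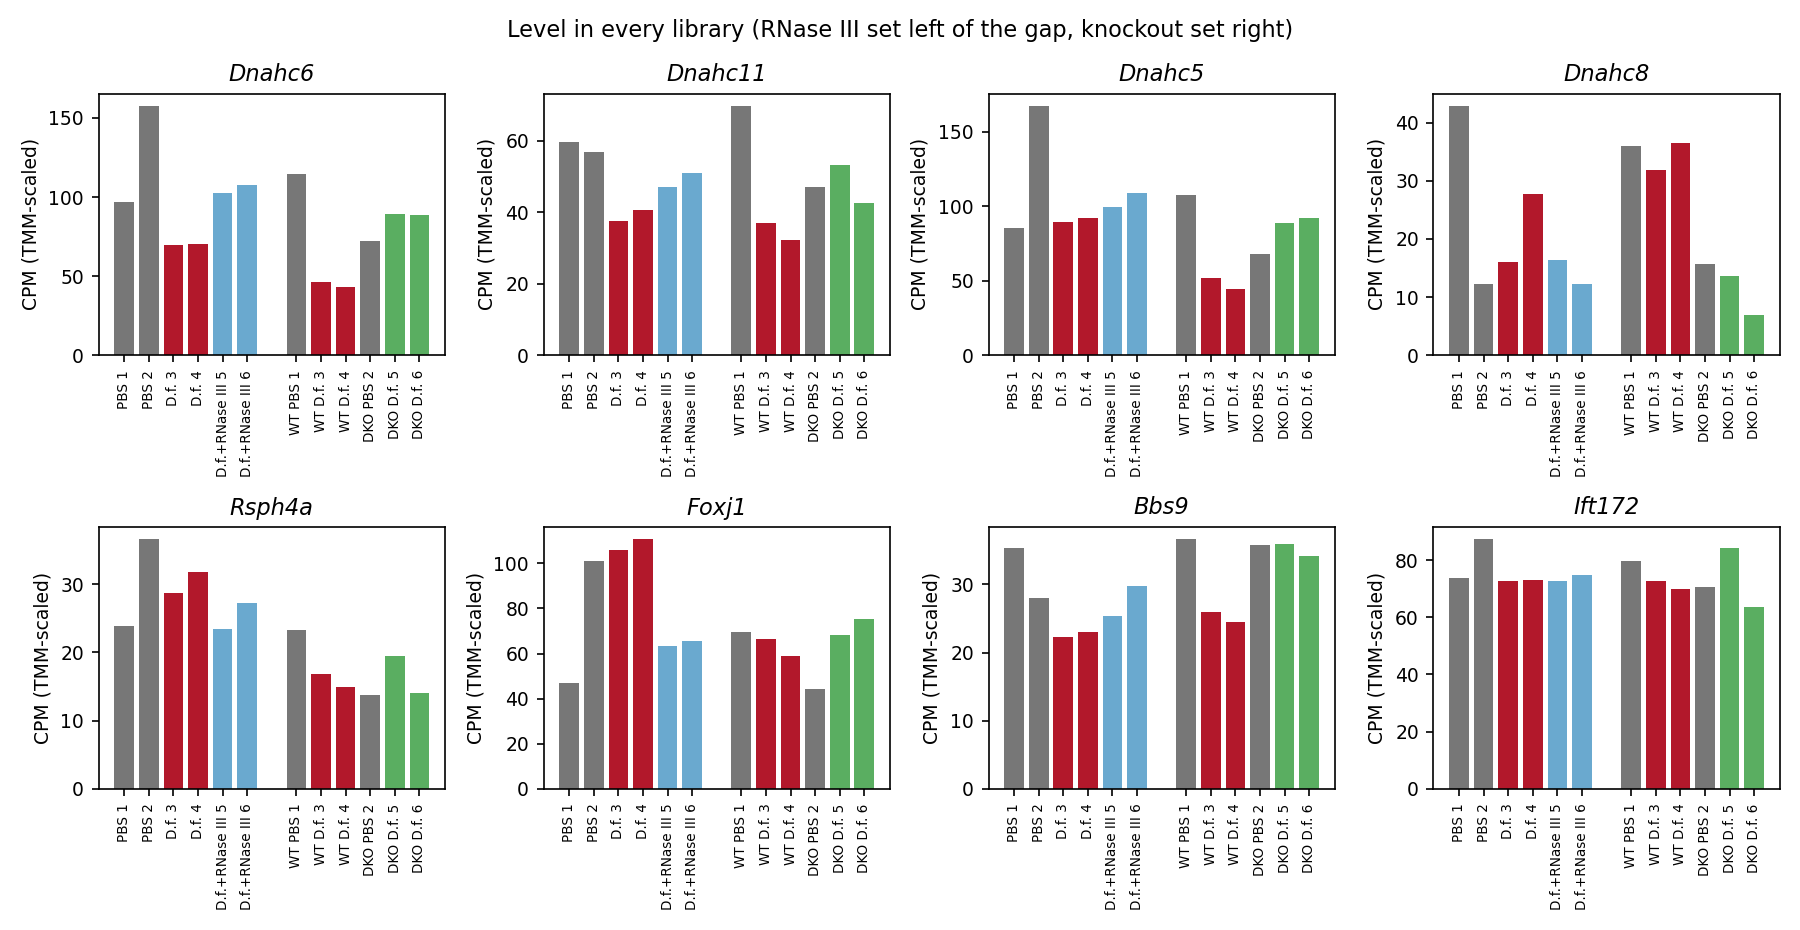
Bars show the level of 8 genes in each library in CPM (TMM-scaled, axis from 0), grey for PBS, red for wild type with D.f., light blue for D.f. with RNase III and green for DKO with D.f. Dnahc6 and Dnahc11 are lowest in the red bars of both sets, Dnahc8 is low in the 3 DKO libraries, and Foxj1 is high in the red bars of the RNase III set.

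D.f. extract with RNase III was then set against both other groups, to see how the response depends on double-stranded RNA. Against PBS, 0 members were called by edgeR and 0 by DESeq2, beside 0.00646% of all genes (1 gene). At an unadjusted p under 0.05 there were 2 axonemal genes and 1 transport gene, beside 4.83% of all genes. The median log2 fold change was -0.25 over axonemal genes, with 22 of 25 below 0, and -0.10 over transport genes, against -0.01 over all genes. The smallest p-values belonged to Dnahc1 (-0.57 ± 0.17), Tekt1 (-0.57 ± 0.18) and Dnahc9 (-0.35 ± 0.16), with adjusted p of 0.946, 0.957 and 0.957 (edgeR). In transport genes they belonged to Bbs1 (-0.34 ± 0.14), Ift74 (0.36 ± 0.16) and Ift122 (-0.21 ± 0.14), each with an adjusted p of 0.957 (edgeR). Foxj1 was at 63.5 and 65.3 CPM, between the 2 PBS libraries (-0.20 ± 0.31, adjusted p = 0.964, edgeR), and at 0.46 without PBS 2. The axonemal minus transport difference of medians was -0.15, and 0.17 without PBS 2.

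Against D.f. extract alone, 0 members were called by edgeR and 0 by DESeq2, beside 8.0% of all genes, and 4 axonemal and 0 transport genes had an unadjusted p under 0.05, beside 23.1% of all genes. Those 4 split in direction. The tektin Tekt4 was at 6.96 and 7.54 CPM with D.f. and at 4.02 and 5.02 CPM with D.f. and RNase III, a log2 fold change of -0.68 ± 0.23 (adjusted p = 0.137, edgeR). Tekt2 went the other way, from 5.30 and 6.32 CPM to 8.92 and 8.44 CPM (0.58 ± 0.20, adjusted p = 0.139). Dnahc11 stood at 47.1 and 51.0 CPM with RNase III, above both D.f. libraries and below both PBS libraries (0.33 ± 0.12 against D.f., adjusted p = 0.152). Dnahc6 stood at 103 and 108 CPM, above both D.f. libraries and between the PBS libraries (0.58 ± 0.21, adjusted p = 0.16). The median was 0.09 over 12 heavy chains and -0.17 over the 13 other axonemal genes, and 0.16 over transport genes, of which 14 of 20 were above 0. The 674 other long genes were at a median of 0.10, with 446 above 0, 33 called higher and 11 lower, and their part was not tested. The smallest p-values among transport genes belonged to Ift20 (0.32 ± 0.14), Ift57 (-0.30 ± 0.13) and Ift46 (0.22 ± 0.12), with adjusted p of 0.221, 0.224 and 0.317 (edgeR). Foxj1 was lower in both RNase III libraries than in both D.f. libraries (-0.75 ± 0.31, adjusted p = 0.209, edgeR). Leaving out PBS 1 or PBS 2, which are not part of this contrast, left its log2 fold change at -0.75. The 2 comparisons of D.f. extract in this set share the D.f. libraries and the 2 against PBS share the PBS libraries, so a value that is off in 1 group shifts both.

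In the knockout set, D.f. extract was compared with PBS in wild type on other libraries, with a single PBS library whose spread was taken from the groups with 2 libraries. This library was the highest of the set for most axonemal genes, as given above, and every member is measured against it, so the comparison is no independent repeat of each gene. The members called were 3 heavy chains. Dnahc6 was at 114 CPM with PBS and at 46.1 and 43.4 CPM with D.f. (-1.36 ± 0.10, adjusted p = 0.0199, edgeR). Dnahc5, an outer-arm heavy chain at chr15:28133507-28401800 (plus strand), was at 108 CPM with PBS and at 51.9 and 44.9 CPM with D.f. (-1.16 ± 0.12, adjusted p = 0.0353). Dnahc9, which shares the outer arm with Dnahc5, at chr11:65644784-65982053 (minus strand), was at 90.4 CPM with PBS and at 45.5 and 36.3 CPM with D.f. (-1.14 ± 0.15, adjusted p = 0.0439). In each of these 3 genes the wild-type D.f. libraries were the lowest of the set. The call was 3 of 22 axonemal genes and 0 of 20 transport genes, beside 0.128% of all 14107 genes called lower and 1.4% in either direction. DESeq2 called 0 transport genes. At an unadjusted p under 0.05 by edgeR there were 12 axonemal and 4 transport genes, beside 17.8% of all genes.

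The direction was shared by nearly the whole family. All 22 axonemal genes were below 0, at a median of -0.66, and 19 of 20 transport genes were below 0, at a median of -0.25, against -0.02 over all genes. Heavy chains had a median of -0.91 and other axonemal genes of -0.58. Both D.f. libraries were below the PBS library in 20 of 22 axonemal and in 18 of 20 transport genes, beside 44.8% of all genes. The exceptions among axonemal genes were the outer-arm heavy chains Dnahc8 and Dnahc17, at -0.07 and -0.09. The smallest p-values among transport genes belonged to Bbs9 (-0.54 ± 0.12, adjusted p = 0.11, edgeR), Ift80 of IFT-B (-0.62 ± 0.16, adjusted p = 0.143) and Bbs12, a chaperonin-like protein that helps to assemble the BBSome (-0.75, from 8.98 CPM to 5.31 and 5.38 CPM). Outside the family, 43 of 44 multiciliated-cell genes were below 0 at a median of -0.55, and Hydin, a central-pair protein, was called (from 58.0 CPM under PBS to 28.7 and 27.5 CPM under D.f.; -1.05 ± 0.11, adjusted p = 0.0353, edgeR). Foxj1 was at 69.7 CPM with PBS and at 66.5 and 58.8 CPM with D.f. (-0.15 ± 0.13, adjusted p = 0.589). The 10 cardiac muscle markers tested were all below 0 in the same comparison, at a median of -0.61, the 10 leukocyte markers were at a median of 0.99 and the 4 adipose markers at -0.96. Club and goblet cell genes, from the airway epithelium that also holds multiciliated cells, were at a median of -0.84, with 9 of 11 below 0. The part of these tissues in the result was not tested. In the single fit over 12 libraries Dnahc5 was not called (adjusted p = 0.085, edgeR). The calls also depended on single libraries, and their ranges are given at the end beside those of all genes. With 1 library left out, the axonemal median minus the transport median ran from -0.44 to -0.40.

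**Figure D3:**
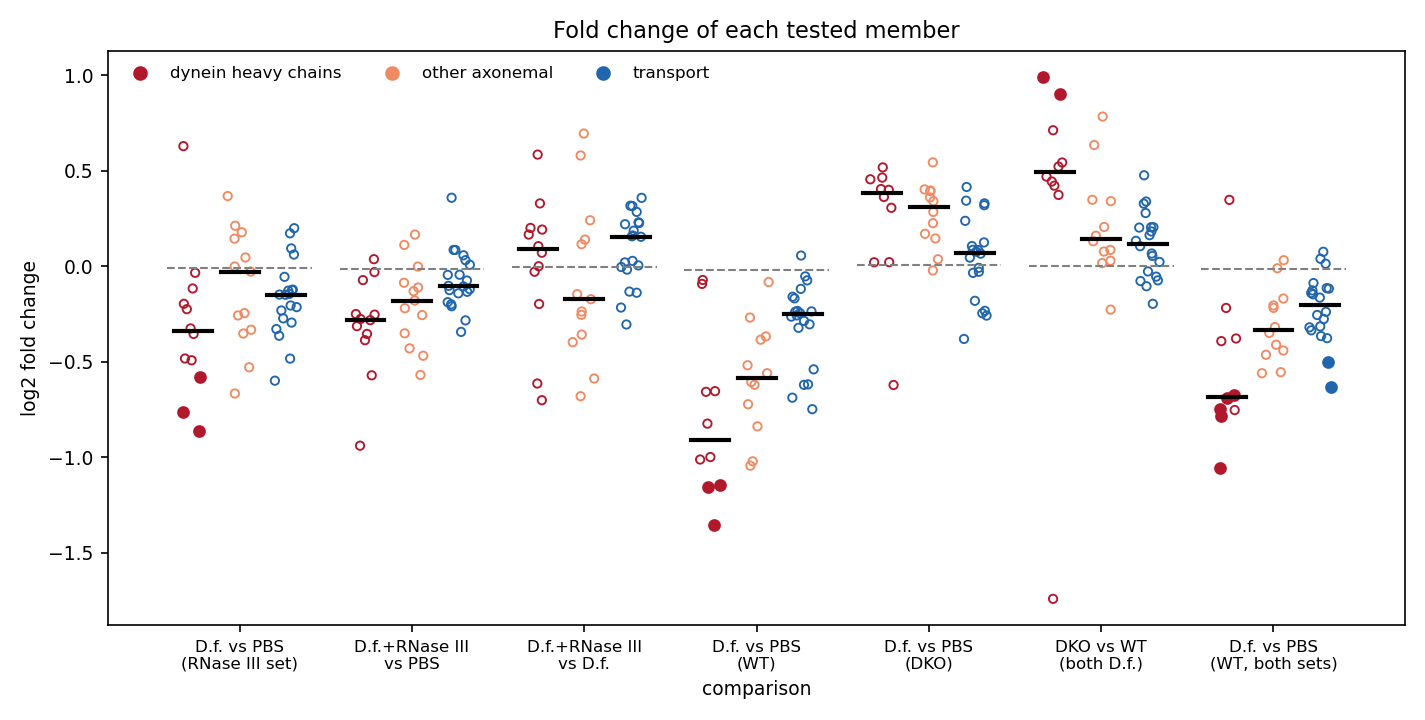
Each circle is the log2 fold change (vertical axis) of a tested member in the comparison named on the horizontal axis, red for heavy chains, orange for other axonemal genes and blue for transport genes; filled circles passed an adjusted p of 0.05. Black bars are medians of each class and the dashed line is the median of all genes. Filled circles are heavy chains except for 2 transport genes in the comparison over both sets, and for D.f. against PBS the class medians lie above the dashed line in DKO mice and below it in wild type.

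In DKO mice the same comparison gave no call. By edgeR and by DESeq2 0 members passed, beside 0.0% of all genes by edgeR, and 3 axonemal and 0 transport genes had an unadjusted p under 0.05, beside 5.57% of all genes. Those 3 were heavy chains: Dnahc5 was at 68.3 CPM with PBS and at 88.7 and 92.0 CPM with D.f. (0.40 ± 0.13), Dnahc6 was at 72.0, 89.0 and 88.9 CPM (0.31 ± 0.11), and Dnahc9 was at 48.9, 67.0 and 66.9 CPM (0.45 ± 0.16), each with an adjusted p of 0.817 (edgeR). In all 3 the D.f. libraries were above the PBS library. The median was 0.35 over axonemal genes, with 20 of 22 above 0, and 0.07 over transport genes, with 12 of 20 above 0, against 0.01 over all genes. Among transport genes the smallest p-values belonged to Ift52 (-0.26 ± 0.11), Ift46 (0.33 ± 0.15) and Ift74 (0.34 ± 0.18), with adjusted p of 0.817 (edgeR). Foxj1 was at 44.2 CPM with PBS and at 68.1 and 75.4 CPM with D.f. (0.70 ± 0.14, adjusted p = 0.817, edgeR). Its log2 fold change was 0.77 without DKO D.f. 5 and 0.62 without DKO D.f. 6, which leaves no replicate in either group. The axonemal median minus the transport median was 0.12 without DKO D.f. 5 and 0.29 without DKO D.f. 6. Ranges of the calls with 1 library left out are given at the end, beside those of all genes.

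Whether the response to D.f. differed between the genotypes was tested as an interaction. By edgeR 0 members passed, beside 0.0% of all genes, and 13 of 22 axonemal and 2 of 20 transport genes had an unadjusted p under 0.05, as did 9.95% of all genes. DESeq2 gave Dnahc6 an adjusted p of 2e-07, Dnahc5 of 1.4e-05 and Dnahc9 of 0.00017, against 0.13, 0.167 and 0.173 by edgeR. The differences were 1.66 ± 0.15, 1.56 ± 0.18 and 1.60 ± 0.22 on the log2 scale by edgeR. The median difference was 0.98 over axonemal genes, with 21 of 22 above 0, 0.37 over transport genes, with 19 of 20 above 0, and 0.01 over all genes. The smallest p-values among transport genes belonged to Bbs9 (0.51 ± 0.16, adjusted p = 0.396), Ift46 (0.59 ± 0.20, adjusted p = 0.428) and Ift74 (0.58 ± 0.25, adjusted p = 0.557). Foxj1 differed by 0.85 ± 0.19 (adjusted p = 0.254, edgeR), by 0.90 without DKO D.f. 5 and by 0.78 without DKO D.f. 6. Each genotype enters with 1 PBS library, and the calls depended on single libraries. Their ranges are given at the end, beside those of all genes. With 1 library left out, the axonemal median minus the transport median ran from 0.56 to 0.74. The DKO PBS library was itself lower than the wild-type one. The DKO value was below the wild-type value in 22 of 22 axonemal genes (median -0.65), in 19 of 20 transport genes (median -0.22) and in 44 of 44 other multiciliated-cell genes (median -0.69), against a median of -0.00313 over all genes. Cardiac muscle markers differed by -2.51 at the median, leukocyte markers by 0.87 and club and goblet cell genes by -0.84 between the same libraries. In the interaction itself club and goblet cell genes were at a median of 0.62, with 9 of 11 above 0. With 1 library per genotype this difference has no test, and its part in the interaction was not tested.

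Under D.f. extract alone, DKO and wild-type lung were compared on 2 libraries each. The members called were 2 heavy chains, both higher in DKO lung. Dnahc6 was at 89.0 and 88.9 CPM in DKO and at 46.1 and 43.4 CPM in wild type, a log2 fold change of 0.99 ± 0.09 (adjusted p = 0.0149, edgeR). Dnahc5 was at 88.7 and 92.0 CPM in DKO and at 51.9 and 44.9 CPM in wild type (0.90 ± 0.11, adjusted p = 0.0268), and it was not called in the single fit over 12 libraries (adjusted p = 0.106). Replicates of either gene differed by far less than the genotypes. The call was 2 of 22 axonemal and 0 of 20 transport genes, beside 0.496% of all genes called higher and 2.44% in either direction. DESeq2 called 0 transport genes, and 2 transport genes had an unadjusted p under 0.05 by edgeR, beside 18.4% of all genes. Dnahc9 followed at 67.0 and 66.9 CPM against 45.5 and 36.3 CPM (0.71 ± 0.13, adjusted p = 0.0645, edgeR), and DESeq2 called it (adjusted p = 0.0043). The median was 0.50 over heavy chains, 0.15 over other axonemal genes and 0.12 over transport genes. Axonemal genes were above 0 in 20 of 22 cases. The nearest transport genes were Bbs9 (35.9 and 34.1 CPM against 25.9 and 24.4 CPM; 0.48 ± 0.10, adjusted p = 0.0829), Ift46 (0.34 ± 0.12, adjusted p = 0.217) and Ift27 (0.33 ± 0.15, adjusted p = 0.321). Hydin was also called (0.68 ± 0.10, adjusted p = 0.0373, edgeR), and Foxj1 was not (0.19 ± 0.11, adjusted p = 0.41). Cardiac muscle markers were at a median of -2.07 and club and goblet cell genes at 0.50, with 10 of 11 above 0, and their part was not tested. The calls depended on single libraries, and their ranges are given at the end beside those of all genes. With 1 library left out, the axonemal median minus the transport median ran from 0.15 to 0.40.

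Dnahc8 did not follow most other heavy chains. This outer-arm chain, known mainly from sperm, at chr17:30761299-31012209 (NCBIM37, plus strand), was at 35.9 CPM with PBS and 31.9 and 36.5 CPM with D.f. in wild-type libraries of the knockout set, and at 15.7 CPM with PBS and 13.6 and 6.86 CPM with D.f. in DKO libraries. All 3 DKO libraries were below all 3 wild-type libraries, with or without the extract. DKO against wild type under D.f. gave -1.74 ± 0.32 (adjusted p = 0.0652, edgeR), the opposite direction to Dnahc5 and Dnahc6. In the RNase III set, where all mice were wild type, it was at 42.9 and 12.3 CPM under PBS, 16.1 and 27.7 CPM under D.f. and 16.5 and 12.2 CPM with RNase III, and the PBS libraries held the highest value and one near the lowest. Wild-type libraries of that set alone ran from 12.2 to 42.9 CPM. Dnahc17, close to the filter level, did not follow most heavy chains either. In the RNase III set it was at 1.11 and 1.18 CPM with PBS and at 1.03 and 2.53 CPM with D.f.

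A joint fit of the wild-type response took the 7 libraries of both sets that received PBS or D.f. extract without RNase III in wild-type mice, with the set as a term. These libraries are those of the 2 wild-type comparisons above, so the fit pools them and adds no independent data. Dynein heavy chains made up all 5 axonemal calls, each lower with D.f.: Dnahc11 (-0.75 ± 0.11, adjusted p = 0.00376, edgeR), Dnahc1 (-0.78 ± 0.13, adjusted p = 0.0065), Dnahc6 (-1.06 ± 0.18, adjusted p = 0.00666), Dnahc9 (-0.67 ± 0.17, adjusted p = 0.0375) and Dnahc2 of the inner arm (-0.69 ± 0.18, adjusted p = 0.038). In Dnahc2 the PBS libraries were at 29.2 and 45.0 CPM in the RNase III set and 32.9 CPM in the knockout set, and the D.f. libraries at 26.7 and 26.1 CPM and at 18.3 and 14.6 CPM. In all 5 the D.f. libraries lay below the PBS libraries of their own set. These genes were called on the same libraries, so their separation adds no support to the calls. It was shared by 8 of 22 axonemal and 11 of 20 transport genes, beside 2730 of all 14152 genes. Among transport genes Bbs9 (-0.50 ± 0.10, adjusted p = 0.0173) and Bbs2 (-0.63 ± 0.13, adjusted p = 0.0179) of the BBSome were called lower, and Ift140 (-0.32 ± 0.09, adjusted p = 0.0505) was the nearest IFT gene. By DESeq2 Ift140 was called (adjusted p = 0.0383). In edgeR it passed with RLE scaling (adjusted p = 0.0429), filterByExpr (0.0475), the single fit (0.0289) and without PBS 2 of the RNase III set (0.0497). Dnahc9 was at -0.36 without wild-type PBS 1 of the knockout set (adjusted p = 0.192, edgeR). Bbs9 was at 35.4 and 28.0 CPM with PBS and 22.2 and 23.1 CPM with D.f. in the RNase III set, and at 36.6 CPM with PBS and 25.9 and 24.4 CPM with D.f. in the knockout set. The counts were 5 of 22 axonemal and 2 of 20 transport genes, beside 6.19% of all genes called lower and 15.6% in either direction.

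The median in that fit was -0.68 over 10 heavy chains, -0.33 over 12 other axonemal genes, -0.14 over 12 IFT genes and -0.33 over 8 Bbs genes, against -0.01 over all genes. No tektin, radial spoke or smaller dynein chain was called, the nearest being Tekt2 (-0.56 ± 0.16, adjusted p = 0.0574) and Tekt1 (-0.44 ± 0.13, adjusted p = 0.0644). Of the genes outside the family, Hydin (-0.69 ± 0.18, adjusted p = 0.038), Tppp3, a tubulin-binding protein of multiciliated cells (-0.65 ± 0.18, adjusted p = 0.0472), Dync2h1, the motor heavy chain that carries IFT trains back (-0.41 ± 0.09, adjusted p = 0.0238), and Kifap3, a subunit of the kinesin that carries them out (-0.35 ± 0.08, adjusted p = 0.022), were called lower. These were 2 of 45 other multiciliated-cell genes and 2 of 23 other transport genes, beside 6.19% of all genes called lower. Foxj1 was at 0.27 ± 0.26 (adjusted p = 0.53), and at -0.02 without PBS 1 of the RNase III set. Axonemal calls numbered 10 without that library and 3 without any 1 of the other 6, while all genes called ranged from 1098 to 2306. Transport calls numbered 0 without D.f. 3 of either set or wild-type PBS 1 of the knockout set. They numbered 1 without D.f. 4 of either set, 2 without PBS 1 and 4 without PBS 2 of the RNase III set.

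A last description sets the heavy chains against the other genes of multiciliated cells within each library. Whether both lists change alike with the number of these cells was not tested. It was chosen after the values had been seen and has no test. For each library the median of the heavy chains' log2 level, relative to each gene's mean over the set, was reduced by the same median of the multiciliated-cell genes outside the family. The difference was below 0 in all 4 wild-type D.f. libraries, from -0.29 to -0.19, and above 0 in the other 8 libraries, from 0.05 to 0.20. Since levels are centred on the 6 libraries of a set, 2 low libraries raise the other 4, so the sign in those 8 libraries is no separate observation. Against the other axonemal genes it was -0.30 to -0.15 in the 4 wild-type D.f. libraries and -0.03 to 0.27 in the other 8, of which 1, PBS 2 of the RNase III set, was below 0. DKO libraries with D.f. stood at 0.09 and 0.11 in the first measure and D.f. libraries with RNase III at 0.08 and 0.06. Long genes outside the family, with at least 10 kb of exon, have only a median relative log2 level, with no other list subtracted. It lay between -0.13 and 0.000601 in the 4 wild-type D.f. libraries and between -0.05 and 0.11 in the other 8. It is therefore not comparable with the differences above, and the part of length was not tested.

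**Figure D4:**
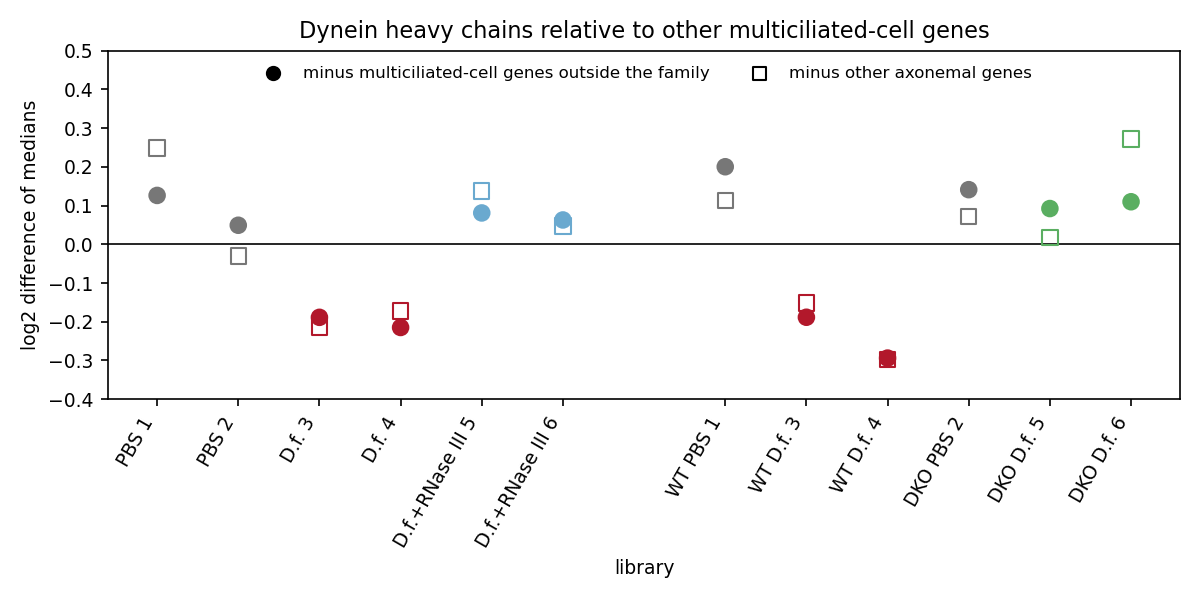
For each library (horizontal axis), the median relative log2 level of the dynein heavy chains minus that of multiciliated-cell genes outside the family (filled circles) and minus that of the other axonemal genes (open squares), with PBS grey, wild type with D.f. red, D.f. with RNase III light blue and DKO with D.f. green. The 4 red libraries lie between -0.30 and -0.15 and the others between -0.03 and 0.27.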

How the data were processed

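Deposited tables held read counts per gene for each of 12 libraries. Per the submitters' processing notes, reads were handled with bcl2fastq, TopHat2 2.0.8b and HTSeq on mm9, and the values are raw counts by the authors. HTSeq's version, annotation and strand setting: not given in the sources used here. Between 23.1% and 28.2% of HTSeq's entries were assigned to genes, and the remaining entries, which name no gene, stayed out of library sizes and tests. Replicates of every group with 2 libraries differed by more than sampling noise, with a chi-square per degree of freedom of 7.33 to 46.6. Wild-type PBS and DKO PBS of the knockout set held 1 library each and have no such value.

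The 2 sets were fitted separately, since their tables list different genes. Genes with a mean of at least 1 CPM were fitted with TMM scaling and tested with edgeR 4.0.16 (quasi-likelihood, R 4.3.3), with Benjamini-Hochberg adjustment over all genes and a threshold of 0.05. Residual degrees of freedom were 3, 2 and 4 in the RNase III, knockout and joint wild-type fits. Printed CPM are TMM-scaled, except in the filter and for members below it. Each fit was tested on simulated data. Alternatives were DESeq2 1.42.0, RLE scaling, filterByExpr, no filter, a single fit over the 12 libraries, near-identical copies left out, heavy chains alone, and leaving out each library. Named members were those called and otherwise the 3 with the smallest p in each class, the 4 most abundant per kilobase, members below the filter, and Foxj1. Tekt2, Tekt4, Dnahc8, Dnahc17, Rsph9 and Rsph3a were named after their values were seen, where that rule did not name them. Members and lists were chosen with earlier results of these data known. Gene coordinates and exon lengths are from GENCODE on NCBIM37, promoters from RefSeq on GRCm38.p6.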

Additional observations from a re-analysis of the deposited data

Results flagged for a closer look

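In the knockout set the D.f. libraries lay on opposite sides of the single PBS library in the 2 genotypes. The median relative log2 level of axonemal genes changed by -0.78 in wild type (from -0.87 to -0.69 over the 2 D.f. libraries, against 1 PBS library) and by 0.32 in DKO (0.21 to 0.43), a difference of 1.10. For transport genes the changes were -0.24 and 0.07, a difference of 0.31. For multiciliated-cell genes outside the family they were -0.52 and 0.38, a difference of 0.90. In each list every wild-type D.f. library lay below its PBS library and every DKO D.f. library above. The DKO PBS library itself was below the wild-type one in 22 of 22 axonemal genes, by a median of -0.65, whereas DKO against wild type with D.f. had a median of 0.36. The difference was not tested for the lists, and each genotype rests on 1 PBS library. Gene by gene edgeR called 0 members for the interaction. At an unadjusted p under 0.05 there were 13 axonemal and 2 transport genes, beside 9.95% of all genes.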

How the results depend on the processing

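No paired analysis was possible because replicate numbers do not repeat within a set, and across the sets the labels tie no number to a shared animal or batch. Leaving out 1 library at a time, axonemal calls ranged from 0 to 6 for the extract against PBS in the RNase III set, 0 to 1 for RNase III against D.f., 0 to 14 for D.f. against PBS in wild type of the knockout set, 0 to 3 in DKO, 0 to 10 for DKO against wild type with D.f., 0 to 13 for the interaction and 3 to 10 over both sets. Transport calls ranged over 0 to 1, 0 to 0, 0 to 4, 0 to 2, 0 to 2, 0 to 1 and 0 to 4 in the same order. The axonemal minus transport median ranged over -0.26 to 0.27, -0.21 to -0.04, -0.44 to -0.40, 0.12 to 0.29, 0.15 to 0.40, 0.56 to 0.74 and -0.30 to -0.14, and over -0.45 to 0.17 for RNase III against PBS. All genes called ranged over 571 to 2959, 115 to 2786, 0 to 3198, 0 to 1860, 3 to 2750, 0 to 1484 and 1098 to 2306, and over 0 to 139 for RNase III against PBS. A single fit over 12 libraries called 2 transport genes for the extract in the RNase III set, and 9 axonemal and 4 transport genes over both sets. The share of all genes called in that fit is not given here, so these counts have no background beside them. The fit without a filter called Dnahc9 for DKO against wild type (adjusted p = 0.0375, edgeR) and Dnahc6 for the interaction (0.0378). Heavy chains alone minus transport gave -0.66 in wild type of the knockout set, 0.38 for DKO against wild type, 0.71 for the interaction and -0.48 over both sets. Foxj1 turned sign without PBS 2 for RNase III against PBS (-0.65 to 0.46 over libraries left out) and without PBS 1 over both sets (-0.0221 to 0.54). The cause was not tested. Without the only PBS library of a genotype, no value exists for the contrasts that need it. Groups held 1 or 2 libraries, and what depth or library number contributed to the calls was not tested.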
